A study of Mus musculus with 14 samples.

Results

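Rab GTPases are small G proteins that mark the membranes of the secretory and endocytic pathways. Genes were taken by symbol, Rab followed by a number and at most 1 letter from a to d, on probe sets annotated with 1 gene only. The pattern found 59 of the 18194 genes measured, carried by 132 probe sets, and 21 of the 59 had 1 probe set and 38 had several. Each gene took the value of its probe set with the highest mean over all arrays. That mean includes the groups compared, so the choice can favour a probe set that is high in a single group. A Rab protein cycles between a GTP-bound form on a membrane and a GDP-bound form in the cytosol. Exchange factors load it with GTP, GTPase activating proteins turn it off, and GDP dissociation inhibitors hold it in solution after it has been prenylated. In its GTP-bound form it recruits effectors, such as motor adaptors and tethering factors, and in neurons the Rab3 proteins sit on synaptic vesicles.

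The arrays held RNA of heart and hippocampus from C57/BL6 mice of 2 ages, with no treatment or transgene. Pups were 7 days old, of a sex not given, with 3 biological replicates per tissue from which mRNA was isolated. Adults were 10 weeks old and male, and their RNA was bought, with 4 arrays per tissue. The sample titles give these as 2 biological replicates with 2 technical arrays each, while the source names and the methods count 4 replicates. The titles were followed, and read as 4 samples per tissue the adult arrays raised the number of Rab genes passing from 15 to 30 between adult tissues and from 4 to 9 for the difference of age effects between tissues. The labels do not say that adult replicates came from separate animals, and the methods name a mouse in the singular, so p-values rest on a spread among samples that may in part be technical. Age, RNA source and RNA preparation cannot be told apart. In whole tissue, fewer cells of a type and less RNA per cell cannot be told apart either.

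All values are log2 signals, differences are on the log2 scale with their standard errors, and a gene passed when its limma p-value, Benjamini-Hochberg adjusted over 18194 genes, was under 0.05. The small number of arrays limits the precision, with a median standard error of 0.303 between the tissues of pups, 0.371 between those of adults and 0.338 between ages. Arrays of a group correlated at 0.931 to 0.968. The 18 hybridization control probe sets averaged 13.15 and 13.16 in the pup tissues against 10.80 and 10.73 in the adult tissues. All 18 were lower in adults, and their part in any age difference was not tested. All 7 cardiomyocyte markers were higher in pup heart than in pup hippocampus and 6 of 7 in adults. The log2 of their summed signal was 18.1 to 18.3 in pup heart, 17.1 to 17.5 in adult heart, 12.3 to 12.8 in adult hippocampus and 12.7 to 15.3 in pup hippocampus. Actc1, the cardiac actin, read 14.76, 12.49 and 10.31 in pup hippocampus replicates 1 to 3, and 8.30 and 8.51 in adult hippocampus. Of 6 neuronal markers, 3 were higher in hippocampus at each age (Snap25, Stmn2 and Nefl), while Syt1, Syp and Rbfox3 did not pass between the tissues.

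Of the 59 Rab genes, 31 passed in at least 1 comparison of tissues or ages and 28 passed in none. Among the 28 were 8 genes whose mean lay above 14 in all 4 groups, Rab19, Rab2b, Rab33b, Rab36, Rab38, Rab3a, Rab7b and Rab8a. The highest value on any array was 16. The other uncalled genes included Rab27a and Rab27b, which serve regulated secretion, Rab8b and Rab13 of exocytic transport, and Rab20 and Rab32 of phagosomes and lysosome-related organelles.

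In pups, 14 of the 59 Rab genes (23.7%) were higher in hippocampus than in heart, and none passed as lower in limma, where 6 were lower at an unadjusted p under 0.05. Over all genes 15.7% passed, 8.27% as higher and 7.43% as lower. The median difference was 0.09 over the Rab genes and -0.10 over all genes. In adults 13 Rab genes were higher in hippocampus and 2 lower, 25.4% together, where 19.7% of all genes passed, 9.46% higher and 10.2% lower. The median was 0.52 over the Rab genes and -0.03 over all genes. The Rab genes therefore passed as higher more often than the background share at each age, as a description without a test of the list. The comparison within pups and that within adults share no sample. Rab14, Rab15, Rab3c, Rab3d, Rab4a, Rab6a and Rab6b were higher at both ages, which is 50% of the 14 genes in pups and 53.8% of the 13 in adults, against 54.2% and 47.4% over all genes that passed as higher. Across the 59 genes the tissue differences at the 2 ages correlated at r = 0.704, against 0.560 over all genes, with each age's genes measured on the same arrays. Samples of the tissues did not overlap for 24 of the 59 Rab genes in pups (40.7%) and 41 in adults (69.5%), where 31.7% and 66.0% of all genes did not overlap, so a lack of overlap is common in these data. The count in adults rested on few samples. It was 8 and 5 without adult hippocampus replicate 1 or 2, and 6 and 9 without adult heart replicate 1 or 2.

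**Figure D1:**
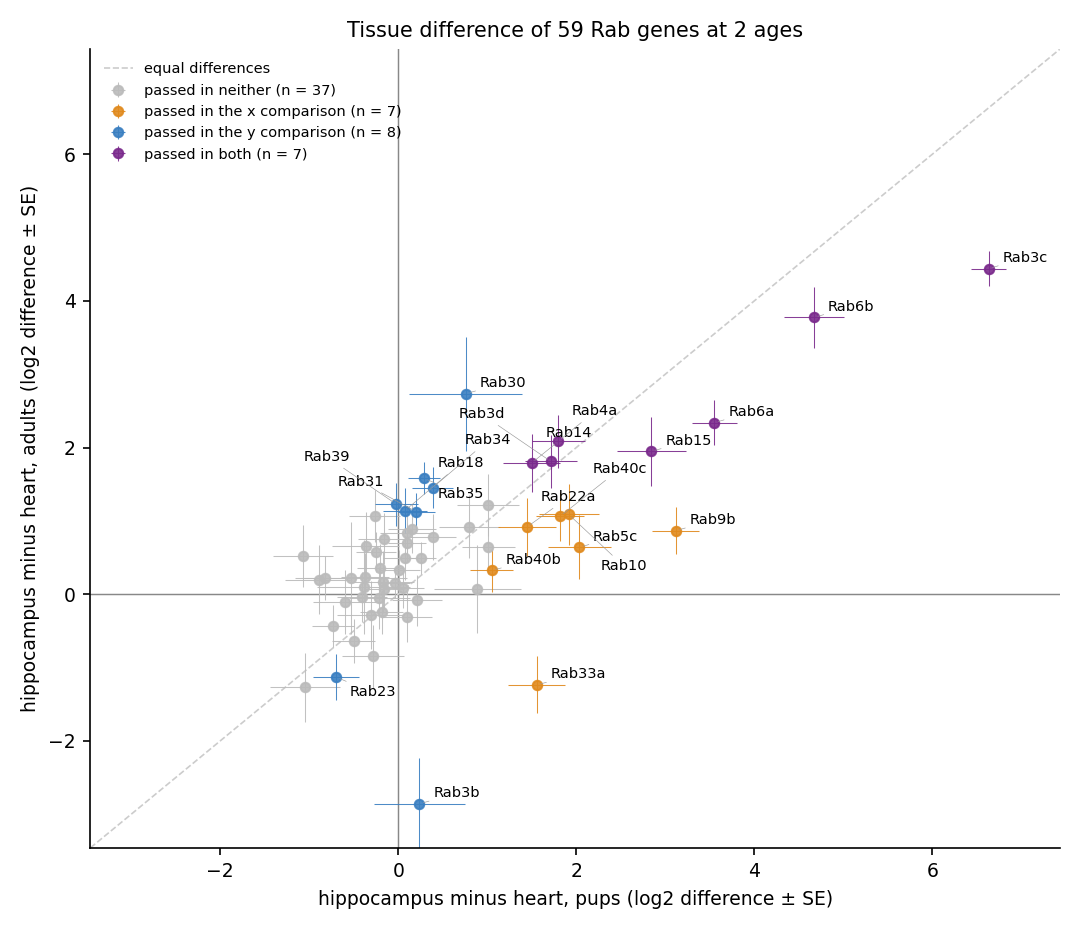
Tissue difference of each of the 59 Rab genes in pups (x axis, log2 of hippocampus minus heart) against that in adults (y axis, same scale), with standard errors as bars and the dashed line marking equal differences. Colours give the comparison in which a gene passed. The points reach furthest to the right for Rab3c (6.63 and 4.44) and Rab6b (4.67 and 3.77), and Rab3b (0.24 and -2.86) lies lowest.

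The Rab3 proteins regulate the docking and release of secretory and synaptic vesicles. Rab3c read 14.70, 14.63 and 14.92 in pup hippocampus against 7.97, 8.23 and 8.16 in pup heart, a difference of 6.63 ± 0.19 (adjusted p = 5.51e-07). Adult samples read 12.43 and 12.77 in hippocampus against 8.10 and 8.23 in heart, a difference of 4.44 ± 0.24 (adjusted p = 7.79e-05). Heart samples of both ages lay together near 8, and no hippocampus sample approached them. No detection call or background level was used, and values such as these, under the array medians of 8.728 to 8.975, were not shown to be above background, so no fold is given against them. Rab3d read 14.66, 14.51 and 14.23 in pup hippocampus against 12.29, 12.65 and 13.31 in pup heart, 1.71 ± 0.29 higher (adjusted p = 0.00384). The adult values were 13.48 and 14.02 in hippocampus and 11.86 and 12.01 in heart, 1.81 ± 0.36 higher (adjusted p = 0.00802). The tissues did not overlap for Rab3d at either age, but its brightest probe set is of a kind that can match several transcripts. The brightest of the others differed by -0.01 in pups and 0.03 in adults.

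Rab3a, the most studied Rab of synaptic vesicles, did not pass on its brightest probe set. That probe set read 15.68, 15.52 and 15.57 in pup hippocampus and 15.42, 15.28 and 15.30 in pup heart, a difference of 0.25 ± 0.18 (adjusted p = 0.393). In adults it read 15.31 and 15.42 in hippocampus and 14.77 and 14.97 in heart, a difference of 0.49 ± 0.21 (adjusted p = 0.146). The probe set belongs to the type that can cross-hybridize. The other Rab3a probe set gave a different picture. It read 15.50, 15.40 and 15.35 in pup hippocampus against 11.51, 11.90 and 10.20 in pup heart, a difference of 4.22 (adjusted p = 7.75e-05 in a fit over all 34958 probe sets of 1 gene). In adults it read 13.77 and 14.50 in hippocampus against 12.78 and 12.60 in heart, a difference of 1.45 (adjusted p = 0.0613).

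Rab3b ran the other way in adults. It read 10.58 and 10.57 in adult hippocampus against 13.67 and 13.19 in adult heart, 2.86 ± 0.63 lower in hippocampus (adjusted p = 0.0133), or 7.25-fold. In pups the tissues overlapped, with 11.25, 11.36 and 10.86 in hippocampus and 11.83, 11.41 and 9.53 in heart (difference 0.24 ± 0.51, adjusted p = 0.826). The adult difference no longer passed when any of the 4 adult samples was left out. Rab26, Rab27a, Rab27b and Rab37, the other genes of secretion measured, did not pass between tissues at either age.

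The proximal sequence upstream of 4 Rab genes is shown because of their tissue differences. Rab3c, Rab6a and Rab6b had the largest towards hippocampus in pups, and Rab3b the largest towards heart in adults. Rab30 had a larger adult difference than Rab6a (2.73 against 2.34), but no sequence for it was available. The sequences are from RefSeq on build GRCm38.p6, 250 bases before the annotated start on the gene's strand, and 48 of the 59 Rab genes had an entry. Rab3c lies on the minus strand at chr13:110280207-110280456, and the others on the plus strand, Rab6a at chr7:100607336-100607585, Rab6b at chr9:103111824-103112073 and Rab3b at chr4:108878820-108879069. Capitals mark matches, on either strand and with overlaps counted, to 6 short motifs that are spelled out with their shares after the sequences.
Rab3c: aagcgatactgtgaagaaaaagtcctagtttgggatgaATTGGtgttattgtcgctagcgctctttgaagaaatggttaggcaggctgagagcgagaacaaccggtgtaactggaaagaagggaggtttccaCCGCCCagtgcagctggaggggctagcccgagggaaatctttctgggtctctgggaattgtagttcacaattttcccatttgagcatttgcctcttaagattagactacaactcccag
Rab6a: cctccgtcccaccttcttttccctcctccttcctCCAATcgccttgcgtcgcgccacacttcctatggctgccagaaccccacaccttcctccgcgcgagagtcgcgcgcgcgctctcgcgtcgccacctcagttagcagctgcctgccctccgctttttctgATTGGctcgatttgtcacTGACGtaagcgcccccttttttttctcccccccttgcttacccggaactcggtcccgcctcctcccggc
Rab6b: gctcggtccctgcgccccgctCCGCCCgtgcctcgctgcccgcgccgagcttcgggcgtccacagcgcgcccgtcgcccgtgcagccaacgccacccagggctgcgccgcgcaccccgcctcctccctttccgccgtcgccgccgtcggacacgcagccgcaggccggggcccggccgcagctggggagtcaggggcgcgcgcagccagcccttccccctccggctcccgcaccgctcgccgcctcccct
Rab3b: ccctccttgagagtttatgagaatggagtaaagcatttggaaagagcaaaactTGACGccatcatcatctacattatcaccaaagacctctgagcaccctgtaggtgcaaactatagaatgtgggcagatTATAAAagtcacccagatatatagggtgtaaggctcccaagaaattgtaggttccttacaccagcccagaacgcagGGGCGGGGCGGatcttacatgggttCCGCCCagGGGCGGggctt
The Rab6b stretch held 80.8% G and C and 40 CpG, the Rab6a stretch 62.8% and 24, the Rab3b stretch 48.8% and 6, and the Rab3c stretch 47.6% and 7. Of the 48 Rab promoters 66.7% held the GC box, searched as GGGCGG, against 32.7% of 27025 promoters. The box bound by nuclear factor Y, searched as CCAAT, was in 43.8% of the Rab promoters and 34.2% of all. The core of the cyclic AMP response element, searched as TGACG, was in 45.8% of the Rab promoters and 17.6% of all. The core promoter element searched as TATAAA was in 6.25% of the Rab promoters and 12.9% of all, and Rab3b was the only one of the 4 shown that held it. The E-box, searched as CACGTG, was in 8.33% and 5.93%, and the motif of the GATA family of factors, searched as AGATAA, in 4.17% and 10.2%. The median G and C content was 60.6% and 52.0%, with a median of 16 and 5 CpG. Among the 13 promoters of genes higher in pup hippocampus, 76.9% held the GC box, 61.5% the nuclear factor Y motif and 38.5% the cyclic AMP response core. These matches are letters in a window and no binding was measured.

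Rab6 proteins act at the Golgi, in transport to the endoplasmic reticulum and in secretory carriers, and Rab6b is known as the form of neurons. Rab6b read 13.32, 12.67 and 12.87 in pup hippocampus against 8.99, 7.80 and 8.07 in pup heart, a difference of 4.67 ± 0.34 (adjusted p = 2.29e-05). Its heart values, like those of Rab3c, were mostly under the array medians. Its adult values were 11.64 and 12.04 in hippocampus and 8.29 and 7.84 in heart, a difference of 3.77 ± 0.41 (adjusted p = 0.000615). Rab6a read 15.02, 14.83 and 14.88 in pup hippocampus against 11.79, 11.02 and 11.26 in pup heart, a difference of 3.55 ± 0.25 (adjusted p = 1.96e-05). The adult samples read 12.12 and 12.67 against 10.05 and 10.06, a difference of 2.34 ± 0.31 (adjusted p = 0.0013). For both paralogs the tissues lay apart at each age, and every probe set of both genes had a higher mean in hippocampus. The calls of Rab6a, Rab6b and Rab3c between tissues were kept in all 16 alternative settings run for each, other than the methods' t-test.

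Of the 16 genes of the endoplasmic reticulum and Golgi, 3 were higher in pup hippocampus and 6 in adult hippocampus, with none lower at the threshold. That is 18.8% against 15.7% of all genes in pups, close to the background, and 37.5% against 19.7% in adults. Beside the Rab6 genes, Rab33a was higher in pups (1.56 ± 0.32). In adults it had the opposite sign without passing, at 11.27 and 11.65 in hippocampus against 12.42 and 12.97 in heart (-1.24 ± 0.39, adjusted p = 0.0545, or 0.0468 in the fit over probe sets). Rab30, Rab34, Rab39 and Rab18 were higher in adult hippocampus (2.73, 1.45, 1.23 and 1.14). Among alternative settings other than the methods' t-test, Rab34 lost its call in 4 of 16 and Rab18 in 7 of 16. For both these included the mean over probe sets and leaving out probe sets of several transcripts. Rab39 lost its call when any of the 4 adult samples was left out. All its samples lay under the array medians and were not shown to be above background. Rab30 read 13.97 and 13.74 in adult hippocampus against 10.27 and 11.97 in adult heart (difference 2.73 ± 0.78, adjusted p = 0.0373). The samples did not overlap, but the call was lost without adult hippocampus replicate 1 or 2 or adult heart replicate 1. In pups Rab30 overlapped, at 9.88 to 11.12 in hippocampus and 8.74 to 11.09 in heart.

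Of the 8 genes of recycling endosomes, 3 were higher in pup hippocampus and 4 in adult hippocampus, and none passed as lower. That is 37.5% and 50% of 8 genes, against 15.7% and 19.7% of all genes. Rab15, a brain-enriched Rab of endosomes, was 2.84 ± 0.38 higher in pups and 1.95 ± 0.47 in adults. Rab4a, which returns receptors rapidly to the surface, was 1.80 ± 0.30 and 2.08 ± 0.36 higher, and Rab14, of traffic between Golgi and endosomes, 1.5 ± 0.32 and 1.79 ± 0.39. Rab35 passed in adults alone, at 9.38 and 9.67 in hippocampus against 7.98 and 7.92 in heart (difference 1.58 ± 0.22, adjusted p = 0.00161). The chosen probe sets of Rab4a and Rab14 can match several transcripts, and the brightest probe set of the other kind differed by -0.35 and -0.20 in pups and by -0.01 and 0.66 in adults. Rab11a and Rab11b, which drive slow recycling, did not pass. Rab11a read 11.31, 10.84 and 10.83 in pup hippocampus against 11.89, 10.93 and 11.39 in pup heart (-0.41 ± 0.28, adjusted p = 0.385). In adults it read 9.32 and 9.51 against 9.29 and 9.63 (-0.04 ± 0.34, adjusted p = 0.947), and the tissues overlapped at each age. Rab11b read 13.41, 12.75 and 13.22 in pup hippocampus against 11.98, 12.59 and 11.77 in pup heart (1.01 ± 0.30, adjusted p = 0.0505). Its adult values were 12.34 and 13.06 against 12.03 and 12.08 (0.65 ± 0.37, adjusted p = 0.262). Its samples lay apart at each age without passing, and its 2 other probe sets passed in opposite directions at both ages.

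Of the 7 genes of early endosomes, Rab5c (2.03 ± 0.36) and Rab22a (1.45 ± 0.32) were higher in pup hippocampus and Rab31 (1.13 ± 0.25) in adult hippocampus. That is 28.6% of the list in pups and 14.3% in adults, against 15.7% and 19.7% of all genes. The adult call of Rab31 was lost in 7 of 16 alternative settings other than the methods' t-test. Its other probe set had the opposite sign without passing. Rab5a, the organizer of early endosome fusion, read 15.13, 15.15 and 15.13 in pup hippocampus against 14.80, 14.52 and 14.92 in pup heart (0.39 ± 0.26, adjusted p = 0.369). In adults it read 14.69 and 14.45 against 13.32 and 14.26 (0.78 ± 0.32, adjusted p = 0.123). The tissues did not overlap at either age, but neither difference passed. Technical arrays of an adult replicate of Rab5a were up to 2.65 apart, and those of Rab15 up to 2.21.

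Of the 6 genes of late endosomes, lysosomes and autophagy, Rab9b alone passed between tissues, in pups. That is 16.7% of the list in pups, close to the 15.7% of all genes, and 0% in adults, against 19.7%. Rab9b read 11.01, 10.82 and 11.13 in pup hippocampus against 8.27, 8.01 and 7.35 in pup heart, a difference of 3.12 ± 0.26 (limma adjusted p = 6.06e-05). Adult values were 8.86 and 9.20 against 8.04 and 8.29 (0.87 ± 0.32, adjusted p = 0.0948). Rab7, which drives maturation to late endosomes and lysosomes, read 12.63, 12.42 and 13.69 in pup hippocampus and 12.54, 11.85 and 11.95 in pup heart (0.80 ± 0.35, adjusted p = 0.166). In adult samples it read 11.24 and 11.49 against 10.55 and 10.34 (0.92 ± 0.42, adjusted p = 0.167).

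Of the 7 genes of exocytic transport and cilia, Rab10 was higher in pup hippocampus (1.91 ± 0.34). Rab23, a ciliary regulator of Hedgehog signalling, was lower in adult hippocampus. That is 14.3% of the list at each age, against 15.7% of all genes in pups and 19.7% in adults. Rab23 read 11.10 and 11.54 in adult hippocampus against 12.34 and 12.57 in adult heart (-1.13 ± 0.31, adjusted p = 0.0341), a call that was lost without any of the 4 adult samples. Rab40b (1.05 ± 0.24) and Rab40c (1.82 ± 0.27), whose products join ubiquitin ligase complexes, were higher in pup hippocampus. The other Rab40c probe set had the opposite sign there, without passing. Rab20, Rab32 and Rab38 did not pass.

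**Figure D2:**
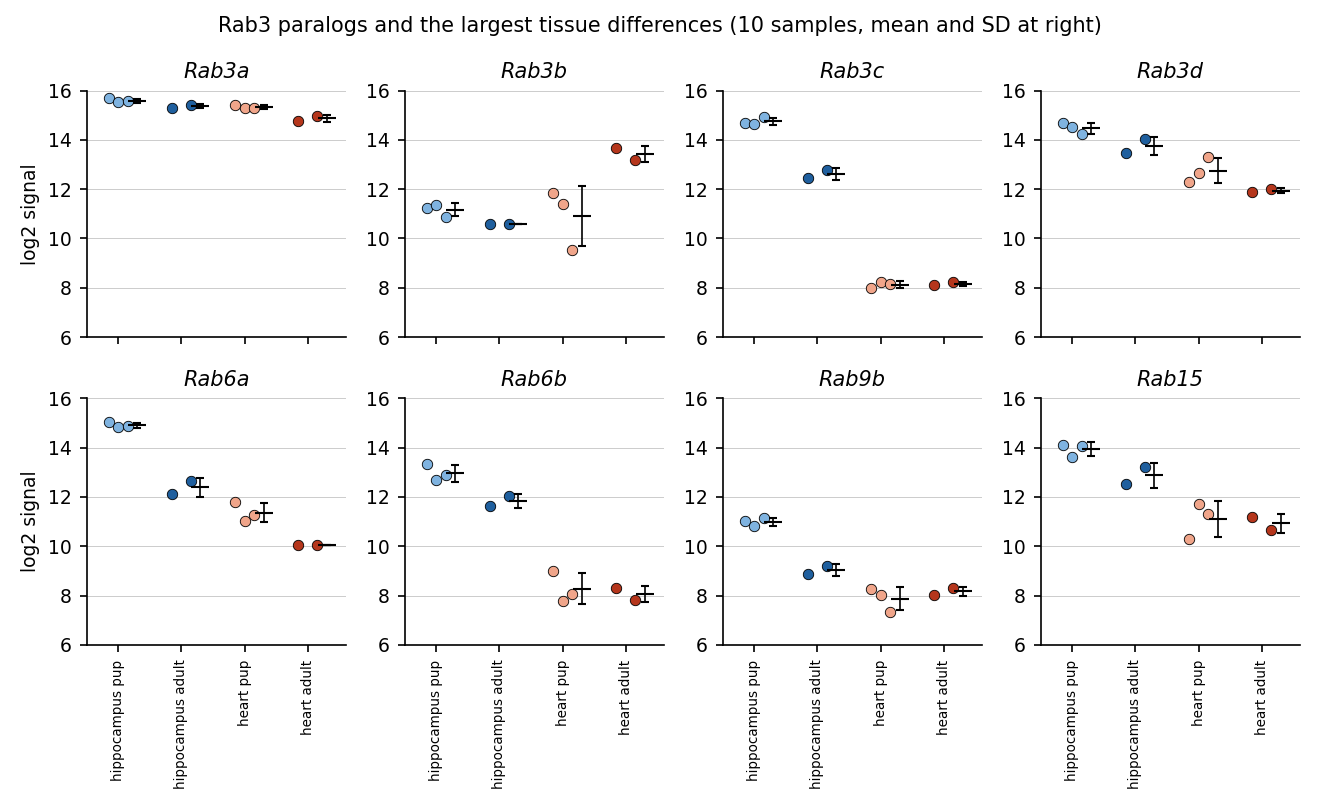
Log2 signal (y axis) of 8 Rab genes in each of the 10 samples, by tissue and age (x axis), with the group mean and SD to the right of the points. Rab3c and Rab6b lay between 7.80 and 8.99 in all heart samples, Rab3a stayed above 14.7 in every sample on its chosen probe set, and Rab3b was highest in the adult heart samples, at 13.67 and 13.19.

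The probe sets of a gene often disagreed. In pups 10 of the 14 Rab genes that passed had other probe sets. For 5 of the 10 another probe set passed the same way, for 2 another passed the opposite way (Rab14 and Rab22a), and 13 of the 26 other probe sets had the same sign. In adults 11 of the 15 had others, with another probe set passing the same way for 4, the opposite way for 1 (Rab3c) and 18 of 25 of the same sign. Between ages the backing was thinner, since another probe set passed the same way for 2 of 12 genes in hippocampus (15 of 28 of the same sign) and for 3 of 11 in heart (14 of 20). Rab3c is a case of the spread within a gene. Its other probe sets differed by 1.55, 0.89, -0.05 and -0.21 in pups and by 0.54, -0.51, 2.07 and -2.17 in adults. Genes that did not pass could also hold a probe set that did, 6 genes in pups (Rab11b, Rab1a, Rab27b, Rab39b, Rab3a and Rab8a) and 11 in adults. Probe sets can lie on different transcripts or parts of a transcript, and which of them reads the main transcript was not tested.

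**Figure D3:**
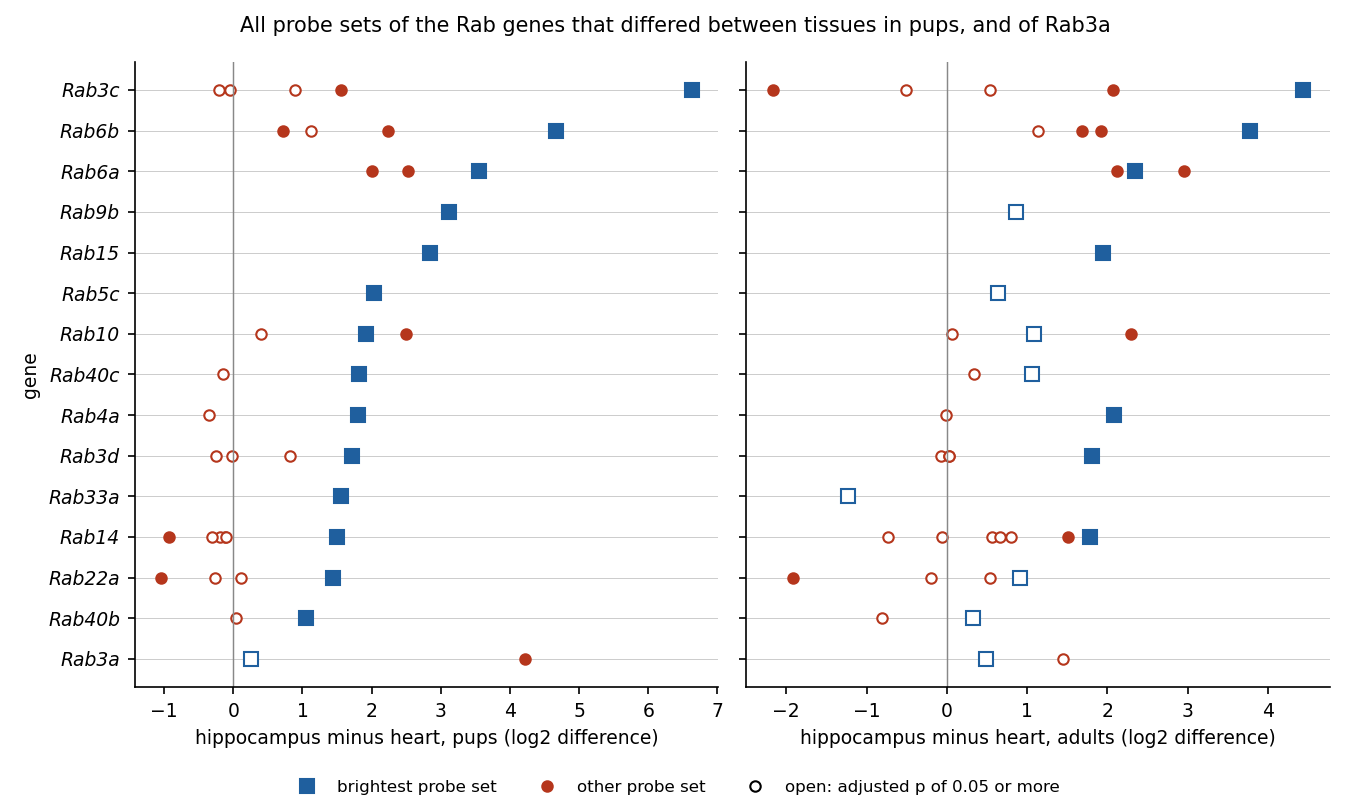
Tissue difference (x axis, log2 of hippocampus minus heart, pups at left and adults at right) of each probe set of the 14 Rab genes that passed in pups and of Rab3a (y axis). Squares are the brightest probe set and circles the others, filled where adjusted p was under 0.05, over all genes for squares and over all probe sets of 1 gene for circles. All 3 probe sets of Rab6a and all 4 of Rab6b lie above 0, while Rab3c runs from -0.21 to 6.63 in pups.

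Between the ages, most of the Rab genes that passed fell. In hippocampus 5 of 59 were higher in adults than in pups and 9 lower, 23.7% together, where 16.1% of all genes passed, 8.63% higher and 7.44% lower. In heart 3 were higher and 13 lower, 27.1%, where 20.6% of all genes passed, 11.2% higher and 9.38% lower. The median difference of the Rab genes was -0.23 in hippocampus and -0.15 in heart, against 0.10 and 0.09 over all genes. These 2 comparisons share no sample. Rab10, Rab11a, Rab14, Rab1a, Rab40c, Rab6a and Rab7 fell in both tissues, which is 77.8% of the 9 that fell in hippocampus and 53.8% of the 13 in heart, against 47.9% and 38.0% over all genes that fell, and no Rab gene passed as higher in both. The age differences of the 59 genes correlated at r = 0.574 between the tissues, against 0.481 over all genes. The ages did not overlap for 61.0% of the Rab genes in hippocampus and 57.6% in heart, where 55.1% and 48.7% of all genes did not. The count was 7 without adult hippocampus replicate 1 in hippocampus, and 7 or 8 without adult heart replicate 1 or 2 in heart.

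**Figure D4:**
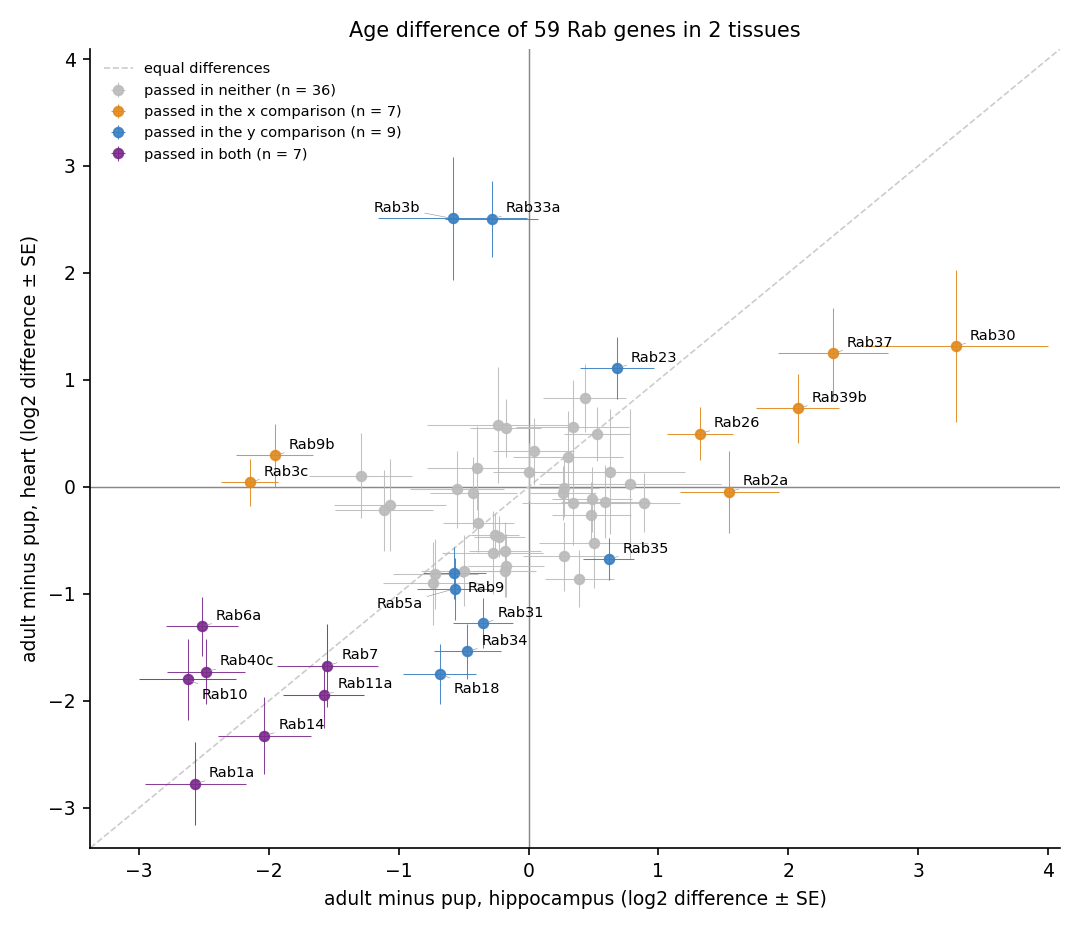
Age difference of each of the 59 Rab genes in hippocampus (x axis, log2 of adult minus pup) against that in heart (y axis, same scale), with standard errors as bars and the dashed line marking equal differences. The 7 genes that passed in both lie at the lower left, from -2.63 to -1.55 in hippocampus, and Rab3b and Rab33a lie alone at the top with a difference of 2.51 in heart.

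Rab1a, which carries vesicles from the endoplasmic reticulum to the Golgi, fell most in heart. It read 13.88, 12.98 and 14.42 in pup heart against 10.81 and 11.17 in adult heart (-2.77 ± 0.39, adjusted p = 0.00231), or 6.84-fold. In hippocampus it read 14.94, 14.59 and 14.77 in pups against 11.99 and 12.41 in adults (-2.57 ± 0.39, adjusted p = 0.00414). The ages lay apart in each tissue. The heart call was kept in all 17 alternative settings other than the methods' t-test, where no Rab gene passed in heart. The hippocampus call was lost with the mean over probe sets, and the 2 other Rab1a probe sets there differed by 1.03 and -0.83 without passing. Rab6a fell by 2.52 ± 0.28 in hippocampus (adjusted p = 0.00129) and by 1.30 ± 0.28 in heart (adjusted p = 0.0121), from the samples given above. Rab6b differed by -1.12 ± 0.38 and -0.22 ± 0.38 and did not pass. None of its 3 other probe sets had the same sign in either tissue, and 1 of them passed as higher in adult hippocampus. Of the 16 genes of the endoplasmic reticulum and Golgi, 3 rose and 2 fell in hippocampus, and 1 rose and 4 fell in heart, where Rab18 (-1.75 ± 0.28) and Rab34 (-1.54 ± 0.26) joined the 2 already named. These were 31.2% of the list in each tissue, against 16.1% and 20.6% of all genes. Without probe sets of several transcripts the heart difference of Rab18 was 0.99, the opposite sign, and that probe set rose in hippocampus by 1.22 (adjusted p = 0.0462).

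The genes that rose in hippocampus were Rab30, Rab37, Rab39b, Rab2a and Rab26. Rab30, a Golgi Rab, read 9.88, 10.68 and 11.12 in pup hippocampus against 13.97 and 13.74 in adult hippocampus (3.29 ± 0.71, limma adjusted p = 0.0161), or 9.79-fold. That call was lost without adult hippocampus replicate 1 or 2. Rab39b, a neuronal Rab in which loss of function causes intellectual disability in people, read 8.49, 7.98 and 8.20 against 10.14 and 10.45 (2.07 ± 0.32, adjusted p = 0.00456). Its call was kept in all 17 alternative settings other than the methods' t-test, and its samples did not overlap. Rab37, a Rab of secretory granules, read 7.81, 7.44 and 7.45 against 10.13 and 9.69 (2.34 ± 0.43, adjusted p = 0.00861). Rab26, which links synaptic vesicles to autophagy, rose by 1.32 ± 0.25. The calls of Rab37 and Rab26 were lost without adult hippocampus replicate 1. Rab2a, of traffic between the endoplasmic reticulum and the Golgi, read 12.73, 12.14 and 12.29 against 14.12 and 13.75 (1.54 ± 0.38, adjusted p = 0.0263), and turned to -0.28 as the mean over its 7 probe sets. In heart Rab30, Rab37, Rab39b, Rab26 and Rab2a differed by 1.32, 1.25, 0.74, 0.50 and -0.05 and did not pass.

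Of the 8 genes of recycling endosomes, 2 fell in hippocampus and 3 in heart, and none passed as higher. That is 25% and 37.5% of the list, against 16.1% and 20.6% of all genes. Rab14 read 13.15, 12.67 and 12.72 in pup hippocampus against 10.74 and 10.88 in adults (-2.03 ± 0.36), and 11.57, 10.65 and 11.83 in pup heart against 8.79 and 9.26 (-2.33 ± 0.36, adjusted p = 0.00323). Without probe sets that can match several transcripts the hippocampus difference of Rab14 was 0.21, so its fall rests on the chosen probe set. Rab11a fell in each tissue, by 1.58 ± 0.31 in hippocampus (adjusted p = 0.0118) and by 1.94 ± 0.31 in heart (adjusted p = 0.00386). Its other probe set differed by -1.33 and -1.0, and passed in hippocampus. Rab11b differed by -0.42 ± 0.33 and -0.06 ± 0.33 with overlapping samples, and did not pass on its chosen probe set. Another Rab11b probe set passed as lower in both tissues, at -1.02 and -1.23 (limma adjusted p = 0.0457 and 0.0176 over all probe sets of 1 gene). The remaining probe set differed by -0.57 and 0.57 without passing.

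Rab10, which delivers membrane to the cell surface, read 15.40, 15.26 and 15.36 in pup hippocampus against 12.49 and 12.94 in adult hippocampus (-2.63 ± 0.38, adjusted p = 0.00349). In heart it read 14.15, 12.70 and 13.43 in pups against 11.56 and 11.69 in adults (-1.80 ± 0.38, adjusted p = 0.011). Both ranges lay apart, though its other probe sets differed by -0.33 to 0.00 only, so the fall was seen on 1 of 3 probe sets. The heart call of Rab10 was lost with the mean over probe sets and with only the groups compared in the fit. Rab40c read 12.94, 12.73 and 13.51 in pup hippocampus against 10.36 and 10.79 in adults (-2.48 ± 0.30, adjusted p = 0.00184), and fell by 1.73 ± 0.30 in heart. Its other probe set had the opposite sign in each tissue, without passing. Rab7 fell by 1.55 ± 0.39 in hippocampus (adjusted p = 0.0275) and by 1.67 ± 0.39 in heart (adjusted p = 0.0166), and lost its call without either adult sample of the tissue compared. The other Rab7 probe set had the opposite sign in hippocampus without passing, and with the mean over probe sets the hippocampus call was lost. Rab5a did not pass in hippocampus (-0.57 ± 0.29, adjusted p = 0.218). In heart it fell by 0.95 ± 0.29 (adjusted p = 0.0474), a call lost in 10 of 17 alternative settings other than the methods' t-test. Rab9, Rab31 and Rab35 also fell in heart, by 0.80, 1.27 and 0.68. Of 17 such settings, the call was lost in 8 for Rab9, 2 for Rab31 and 7 for Rab35. Rab9 and Rab35 lost it without adult heart replicate 1 or 2, and Rab31 with the mean over probe sets. The other Rab31 probe set had the opposite sign in heart without passing.

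Among the Rab3 genes Rab3c fell by 2.15 ± 0.22 in hippocampus (adjusted p = 0.00102) and stayed near 8 in heart (0.04 ± 0.22, adjusted p = 0.913). Another Rab3c probe set rose in hippocampus by 1.74 (adjusted p = 0.00392), and with the mean over probe sets the fall no longer passed. Rab3b rose in heart, from 11.83, 11.41 and 9.53 in pups to 13.67 and 13.19 in adults (2.51 ± 0.58, adjusted p = 0.0162), and differed by -0.59 ± 0.58 in hippocampus (adjusted p = 0.527). The heart call was lost with only the groups compared in the fit, and without adult heart replicate 1 or 2. When a replicate was left out, the heart difference ran from 1.81 to 2.96. Pup heart replicate 3 was the low sample of Rab3b, and without it the tissue difference in pups was -0.46. Rab3d differed by -0.72 ± 0.33 (adjusted p = 0.168) and -0.81 ± 0.33 (adjusted p = 0.111), and the chosen probe set of Rab3a by -0.23 ± 0.20 (adjusted p = 0.469) and -0.46 ± 0.20 (adjusted p = 0.129). The other Rab3a probe set differed by -1.28 in hippocampus (adjusted p = 0.0832) and 1.49 in heart (adjusted p = 0.0419).

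Rab33a and Rab23 were the other genes that rose in heart. Rab33a, a Golgi Rab whose product also moves vesicles into growing axons, read 9.63, 10.77 and 10.16 in pup heart against 12.42 and 12.97 in adult heart (2.51 ± 0.36, adjusted p = 0.00242). That call was kept in all 17 alternative settings other than the methods' t-test, where no Rab gene passed in heart. The ages did not overlap. Rab23 read 11.75, 11.08 and 11.20 against 12.34 and 12.57 (1.11 ± 0.29, adjusted p = 0.025), and its call was lost in 10 of these 17 settings.

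**Figure D5:**
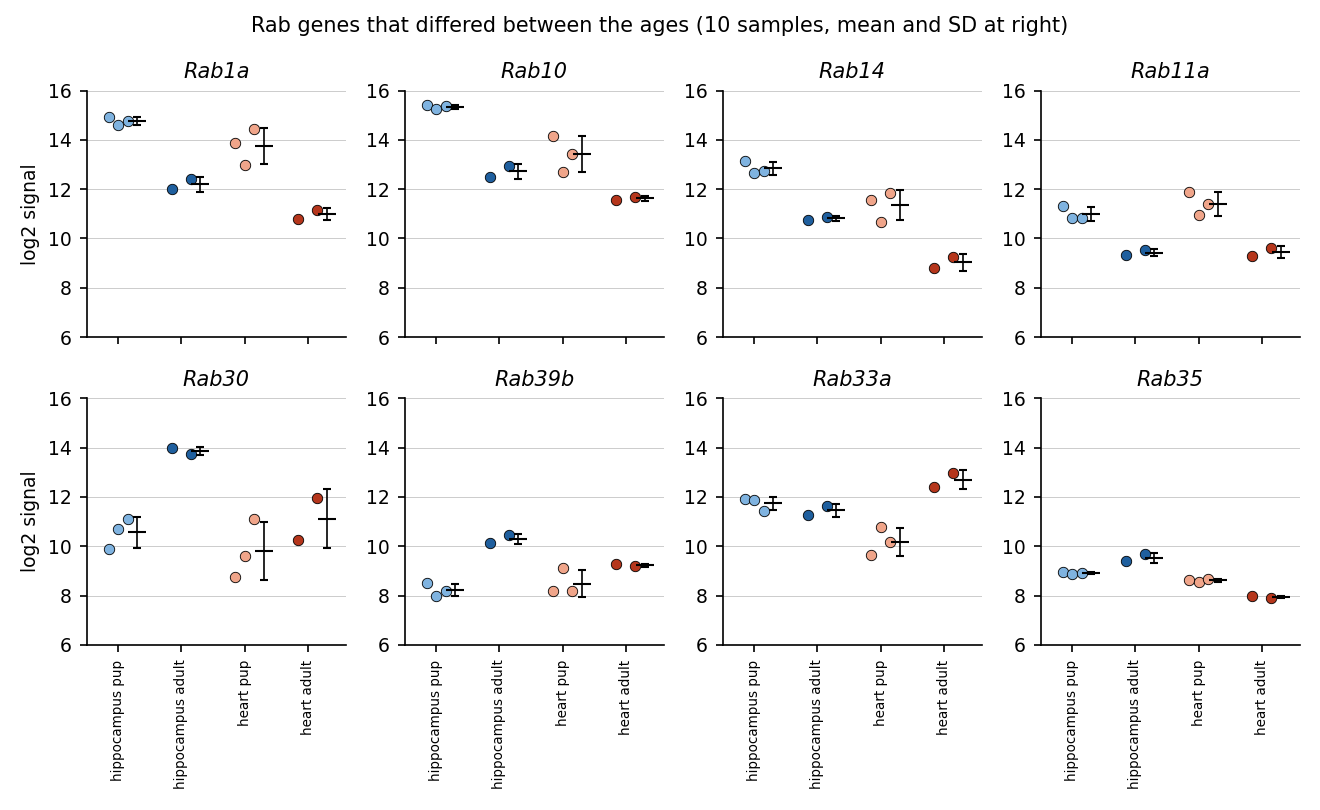
Log2 signal (y axis) of 8 Rab genes in each of the 10 samples, by tissue and age (x axis), with the group mean and SD to the right of the points. Rab1a, Rab10, Rab14 and Rab11a were lower in every adult sample than in every pup sample of the same tissue, Rab30 and Rab39b were highest in adult hippocampus, and Rab33a was highest in adult heart.

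Whether the age difference itself differed between the tissues was asked by the interaction, for which the age difference in hippocampus was subtracted from that in heart. It passed for 4 of 59 Rab genes (6.78%), 3 with a higher value and 1 with a lower, where 3.68% of all genes passed, 2.45% higher and 1.23% lower. Rab3c differed by 2.19 ± 0.31 (adjusted p = 0.00823), with a fall in hippocampus and no difference passing in heart. Another Rab3c probe set passed the opposite way, at -2.12 (adjusted p = 0.0188). Rab9b, at 8.27, 8.01 and 7.35 in pup heart and 8.04 and 8.29 in adult heart, differed by 2.25 ± 0.42 (limma adjusted p = 0.0227). It fell by 1.96 ± 0.30 in hippocampus and overlapped between ages in heart. All heart samples of Rab3c and Rab9b lay under the array medians and were not shown to be above background. A fall in heart may therefore not have been readable for either gene. Rab33a differed by 2.79 ± 0.50 (adjusted p = 0.0208), with 11.93, 11.86 and 11.44 in pup hippocampus against 11.27 and 11.65 in adult hippocampus beside its rise in heart. Rab35, of endocytic recycling and neurite outgrowth, differed by -1.29 ± 0.28 (adjusted p = 0.0415). It read 8.97, 8.87 and 8.90 in pup hippocampus and 9.38 and 9.67 in adults, and 8.62, 8.57 and 8.69 in pup heart and 7.98 and 7.92 in adults. Among the chosen probe sets Rab3b had the highest interaction, 3.10 ± 0.81, and did not pass (limma adjusted p = 0.0725). The other genes fixed for description, Rab3a, Rab3d, Rab5a, Rab7, Rab11a and Rab11b, had interactions from -0.39 to 0.37 and none passed. The other Rab3a probe set had an interaction of 2.77 (limma adjusted p = 0.0439). Rab12 passed in no comparison, but its other probe set had an interaction of 3.48 (limma adjusted p = 0.00788 over all probe sets of 1 gene). That probe set differed by -3.44 between adult tissues and by 3.42 between ages in heart. Without adult hippocampus replicate 1 no Rab gene passed in limma, with 8 at an unadjusted p under 0.05. Without the other adult samples or pup hippocampus replicates 1 to 3, from 1 to 2 passed.

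The regulators of Rab proteins were counted in 4 lists. Of 7 genes of GDP dissociation inhibition and prenylation, Gdi2 alone passed in a comparison. That is 14.3% of the list between ages in each tissue, against 16.1% of all genes in hippocampus and 20.6% in heart. Gdi2, which extracts GDP-bound Rabs from membranes, fell from 14.54 ± 0.28 to 12.12 ± 0.36 in hippocampus (SD, n = 3 and 2, difference -2.42 ± 0.37, limma adjusted p = 0.00418). In heart it fell from 13.87 ± 0.60 to 11.46 ± 0.31 (-2.40 ± 0.37, limma adjusted p = 0.00312). Those falls were close in size to those of Rab1a.

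Of 42 exchange factors, 3 were higher and 2 lower in hippocampus than heart in pups, 3 and 3 in adults, 5 rose and 6 fell with age in hippocampus, and 4 rose and 5 fell in heart. That is 11.9%, 14.3%, 26.2% and 21.4% of the list, against 15.7%, 19.7%, 16.1% and 20.6% of all genes. Ccz1, a partner of Mon1 in activating Rab7, fell by 2.01 ± 0.28 in hippocampus and 1.93 ± 0.28 in heart. Mon1a fell by 1.32 ± 0.32 in hippocampus and rose by 1.18 ± 0.32 in heart, and its interaction of 2.50 ± 0.46 passed (limma adjusted p = 0.0221). Mon1b was lower in hippocampus at each age, by 1.39 in pups and 1.55 in adults. Trappc4, a subunit of the complex that activates Rab1, rose by 1.99 ± 0.31 in hippocampus and was 1.24 ± 0.28 lower in pup hippocampus than pup heart. Hps4, of the factor that activates Rab32 and Rab38, was 1.19 higher in pup hippocampus and fell there by 1.66.

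Of 33 GTPase activating proteins, 6 were higher and 2 lower in pup hippocampus than pup heart, and 4 and 3 in adults. With age 3 rose and 6 fell in hippocampus, and 1 rose and 3 fell in heart. That is 24.2%, 21.2%, 27.3% and 12.1% of the list, against 15.7%, 19.7%, 16.1% and 20.6% of all genes. Tbc1d24, in which mutations cause epilepsy in people, was 2.01 ± 0.20 higher in pup hippocampus (limma adjusted p = 0.000169). Evi5l and Tbc1d13 were higher in hippocampus at both ages, by 1.46 and 1.30, and by 1.39 and 1.20. Tbc1d1, known for the control of glucose transporter traffic in muscle, had the largest age difference among the regulators, -3.49 ± 0.56 in hippocampus and -3.25 ± 0.56 in heart.

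Of 46 effectors, 5 were higher and 3 lower in pup hippocampus than pup heart, and 6 and 4 in adults. With age 3 rose and none passed as lower in hippocampus, and 2 rose and 3 fell in heart. That is 17.4%, 21.7%, 6.52% and 10.9% of the list, against 15.7%, 19.7%, 16.1% and 20.6% of all genes. The shares between tissues were close to the background and those between ages below it. Rph3a, rabphilin, the effector of Rab3 on synaptic vesicles, was higher in pup hippocampus at 12.91 ± 0.08 against 9.82 ± 1.60 in pup heart (SD, n = 3 each, difference 3.09 ± 0.64, limma adjusted p = 0.011). Appl1, an effector of Rab5, was 2.07 ± 0.46 higher in pups and 2.49 ± 0.56 in adults. Rab11fip3, an effector of Rab11, was 1.49 ± 0.23 and 2.17 ± 0.28 higher, and Myrip, which joins Rab27a to myosin, 1.78 ± 0.23 and 1.71 ± 0.28. Rilpl1 was lower in hippocampus at both ages, by 1.82 and 1.78. Sytl2, an effector of Rab27, fell by 1.80 ± 0.23 in heart, and its interaction of -2.22 ± 0.33 passed (limma adjusted p = 0.00983).

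Other cell types also differed between the groups. The log2 of the summed neuronal markers was 16.3 to 16.6 in pup hippocampus, 15.7 to 16.2 in adult hippocampus, 15.5 to 15.9 in pup heart and 15.6 to 15.8 in adult heart. Between the ages in hippocampus Nefl and Stmn2 fell by 1.79 and 3.16 and Snap25 rose by 1.26. Of 5 astrocyte markers, 3 were higher in hippocampus in pups and 2 in adults. Of 6 fibroblast markers, 4 were lower in pup hippocampus than pup heart, and with age 2 fell in hippocampus and 4 in heart. Of 5 endothelial markers, 2 were lower in hippocampus than heart in pups and 1 in adults, and with age 1 fell in hippocampus and 2 in heart. Of 5 oligodendrocyte markers, Cnp alone passed. No background level was used for the markers, and some, such as Mog at 5.29 to 7.50, lay under the array medians. They were not shown to be above background. The part of these cell types in the Rab differences was not tested. Without pup hippocampus replicate 1, the sample with the highest heart markers, 12 Rab genes passed between the tissues of pups and 14 between the ages of hippocampus.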

How the data were processed

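Expression was measured on single-colour Affymetrix mouse expression arrays, 14 in all. The deposited values are log2 expression per probe set, which the authors summarized with RMA 2.0 by the upper decile. Array medians lay between 8.728 and 8.975. Of 45101 probe sets, 34958 named 1 gene and entered the comparisons, and 932 named several and were left out. The technical arrays of each adult replicate entered as their mean, for 10 biological samples, and 1 limma fit (version 3.58.1, R 4.3.3) with a mean per group gave 5 contrasts, with two-sided tests, 6 residual and 3.1 prior degrees of freedom. The fit was tested on simulated data with known differences between the pup tissues. It recovered 10% of 100 differences of 1 and 71% of 100 differences of 2, with 7 false calls among unchanged genes. A gene that did not pass is therefore not shown to be unchanged.

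The Rab genes, the role groups, the regulator lists (GDP dissociation inhibition and prenylation, exchange factors, GTPase activating proteins, effectors) and the marker lists were chosen with earlier results of these data known. Full values were given, per contrast, for the 4 largest passing differences in each direction without overlap between groups, and for Rab3a to Rab3d, Rab5a, Rab7, Rab11a and Rab11b. For each regulator list up to 4 genes per contrast were named. Markers of microglia, platelets, melanocytes and erythroid cells were also computed. Motifs were searched with Python 3.11.15. Alternatives changed the scaling, the probe set rule, the handling of technical arrays, the low-value filter (25th percentile), the variance trend, the samples in the fit, the replicate block and the test, and left out each replicate. Using technical array 1 or 2 alone was added after seeing the data.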

Additional observations from a re-analysis of the deposited data

Results flagged for a closer look

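The age difference differed between heart and hippocampus, by the interaction term of the limma fit, for 4 Rab genes. With the age difference in hippocampus subtracted from that in heart, the value was 2.79 for Rab33a, 2.25 for Rab9b, 2.19 for Rab3c and -1.29 for Rab35. Of 21 alternative settings, the call was lost in 8 for Rab33a, 8 for Rab9b, 3 for Rab3c and 10 for Rab35, and the sign of the chosen value was kept in all of them. A second Rab3c probe set passed with the opposite sign, at -2.12 (adjusted p = 0.0188 in limma over all probe sets of 1 gene). All heart samples of Rab3c and Rab9b lay under the array medians, where a fall may not have been readable. Groups of 2 or 3 samples were too small to test single samples as outliers.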

How the results depend on the processing

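The counts of Rab genes passing were within 1.5 times the values given under quantile normalization, median centring with percentile range scaling, the mean over probe sets, leaving out probe sets of several transcripts, the filter on low values, the variance trend and technical arrays 1 or 2 of adults alone. With every array as a sample, the reading given by the source names and the methods (4 replicates per adult tissue), 30 passed between adult tissues and 9 for the interaction, and with a random block for technical arrays, 28 and 7. With only the groups compared in the fit, 9 passed between the ages in heart. The methods' t-test after Benjamini-Hochberg adjustment gave 5 between pup tissues, 0 between adult tissues (21 at an unadjusted p under 0.05), 8 between ages in hippocampus and 0 in heart (20 at an unadjusted p under 0.05). At the methods' rate of 0.1% it gave 0 in all 4, where 20, 21, 24 and 20 had an unadjusted p under 0.05. With the replicate number as a block, 0 passed for the interaction (14 at an unadjusted p under 0.05), and 14, 14, 13 and 15 in the other comparisons. Same-numbered samples deviated together at r = 0.20, -0.09 and 0.0017 in pups and -0.06 in adults, and 2 of 6 pup samples correlated best with their own number. With so few samples in a group these values cannot show whether same-numbered tissues came from the same animal, and the titles do not say.

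Leaving out 1 replicate gave 12 to 17 genes between pup tissues, 5 to 9 between adult tissues, 7 to 14 between ages in hippocampus, 7 to 18 in heart and 0 to 5 for the interaction. A lone adult sample was then assumed to vary like the other groups. Without adult hippocampus replicate 1 the interaction had 0 in limma and 8 at an unadjusted p under 0.05.

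Among the named genes, 894 of the values of passing genes kept direction and call, 212 kept direction only and 7 reversed. The cause of the reversals was not tested. Quantile normalization gave 0.055 for Rab11a between adult tissues and -0.092 for Rab3c between ages in heart, and range scaling 0.056 and -0.12. The mean over probe sets gave Rab11a 0.22 and 0.24 between tissues in pups and adults, Rab2a -0.28 and Rab3d 0.10 between ages in hippocampus, Rab3a 0.51 and Rab3d 0.22 in heart, and interactions of 1.27 and 0.12 for these. Without probe sets of several transcripts, tissue differences in pups were -0.013 for Rab3d, 0.86 for Rab11a, -0.20 for Rab14 and -0.35 for Rab4a, and in adults 0.52 for Rab11a and -0.0090 for Rab4a. Age differences were then 0.99 for Rab3d and 0.21 for Rab14 in hippocampus, and 1.49 for Rab3a, 0.95 for Rab3d and 0.99 for Rab18 in heart, with interactions of 2.77 for Rab3a and 0.33 for Rab11a. Leaving out 1 replicate, the interaction ran from -0.51 to 0.12 for Rab7, -0.37 to 0.18 for Rab3d and -0.85 to 0.083 for Rab5a. The age difference in heart then ran from -0.0323 to 0.106 for Rab3c and -0.23 to 0.18 for Rab11b, and the tissue difference from -0.46 to 0.69 for Rab3b in pups and -0.22 to 0.13 for Rab11a in adults. With technical arrays 1, Rab3c gave -0.22 in heart, and Rab3d and Rab5a interactions of 0.014 and 0.32. With technical arrays 2, Rab11a gave 0.021 between adult tissues, Rab11b 0.16 in heart and Rab7 an interaction of 0.10.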
